A study of Mus musculus with 30 samples.

Results

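The genes described here are 5 genes of cytotoxic lymphocytes: the granzymes Gzma and Gzmb, the granule membrane gene Nkg7, the natural killer (NK) cell receptor gene Klra9 and the adaptor gene Tyrobp. They were taken by symbol from 17097 genes that have a probe set annotated to a single symbol, and each was read from the probe set whose mean over the 30 arrays is highest (1417898_PM_a_at for Gzma, 1419060_PM_at for Gzmb, 1450753_PM_at for Nkg7, 1425436_PM_x_at for Klra9 and 1450792_PM_at for Tyrobp). Each of the 5 members has a single such probe set.

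The arrays measured CD4+ T cells and CD11c+ cells from DO11.10 RAG2-/- BALB/c mice aged 8 to 10 weeks. These mice carry a T cell receptor transgene specific for ovalbumin (OVA) and, lacking RAG2, make no B cells and no other T cells, while NK cells do not need RAG2. In each cell type there were 5 groups of 3 arrays, 10 groups in all: unimmunised mice, mice primed with OVA (100 µg per mouse) in complete Freund's adjuvant (CFA), primed mice given a control IgG (10 mg/kg), primed mice given abatacept (10 mg/kg; a CTLA4 fusion protein that blocks CD28 costimulation), and mice tolerised orally with OVA in the drinking water (50 mg/ml per the sample labels; the series' design text gives 50 as a dose per kg instead). Cells were taken at day 10 after immunisation. CD4+ cells were separated by negative magnetic selection from the axillary nodes of all 3 groups that were primed, the mesenteric nodes of OVA-fed mice, and spleen pooled with nodes for unimmunised mice, so for CD4+ cells the tissue and the condition cannot be told apart outside the primed groups. CD11c+ cells came from pooled spleen and lymph nodes in all groups and were taken with CD11c microbeads. Nothing in the labels says that the arrays of a group stand for separate mice, and p-values then measure only the spread among these samples, possibly technical.

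Granzymes are serine proteases stored in the granules of NK cells and cytotoxic T cells and delivered into a target cell through pores made by perforin. NK cells are steered by receptors of the C-type lectin families, among them the Ly49 receptors that read MHC class I, and their activating receptors signal through adaptors that carry an immunoreceptor tyrosine-based activation motif (ITAM), such as the products of Tyrobp and Fcer1g. Tyrobp is also abundant in macrophages, dendritic cells and neutrophils, where it serves myeloid receptors.

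Values are log2 expression values from the robust multi-array average (RMA), so a step of 1 is a doubling of the signal. A gene was tested if it lay above the array median on at least 3 arrays of the fit, and called if its limma p-value, Benjamini-Hochberg adjusted over all tested genes, was below 0.05. Array medians ran from 4.46 to 4.54.

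Marker genes of other cells were present in some fractions. On CD4+ arrays of unimmunised mice, the mean level of 7 neutrophil genes was 10.61 to 10.86, against 3.54 to 4.06 on primed CD4+ arrays, and all 7 were above the array median, as were all 7 monocyte and macrophage genes and all 5 erythroid genes. Of the NK cell list (Ncr1, Klrb1c, Eomes and Prf1 of 6 genes were on the array with a single symbol), the mean level on CD4+ arrays was 7.22 to 7.29 in unimmunised mice, 5.92 to 6.10 in primed mice, 5.87 to 6.09 with control IgG, 6.24 to 6.73 with abatacept and 6.57 to 7.11 in tolerised mice. In CD11c+ cells it was 6.65 to 7.05 in unimmunised, 7.03 to 7.16 in primed, 7.08 to 7.17 in IgG, 6.77 to 7.18 in abatacept and 7.26 to 7.31 in tolerised mice. This list holds Prf1 as read by its probe set with the higher mean, and the probe sets of Prf1 differ, as given below. The 7 measured T cell genes had mean levels of 8.69 to 8.80 on CD4+ arrays of unimmunised mice and 9.84 to 10.27 on the other CD4+ arrays. The CD11c+ fraction held 4 of 5 dendritic cell genes above the median in unimmunised mice and 5 of 5 in the other groups, beside all 7 monocyte and macrophage genes. The salivary gland gene Amy1 was above 7 on 5 of the 15 CD11c+ arrays (unimmunised replicate 2, IgG replicates 2 and 3, abatacept replicate 3 and tolerised replicate 3). Without these 5 arrays the CD11c+ count of called members was 4 (from 4) for primed against unimmunised, tolerised against unimmunised and abatacept against tolerised mice, and changes in the other comparisons are given beside them. Levels of 3 sex-linked genes (Xist, active in female cells, and the Y-linked Eif2s3y and Kdm5d) also differed between groups. In CD4+ cells 3 of 3 were called for primed and for tolerised against unimmunised mice and for abatacept against tolerised mice. There 2 of 3 were called for IgG against primed, 1 of 3 for tolerised against primed, and 0 of 3 for abatacept against IgG by limma (0 also at an unadjusted p below 0.05). In CD11c+ cells 3 of 3 were called for primed against unimmunised, tolerised against primed and abatacept against IgG. Marker lists carry the name of a cell type, but a list alone does not show that cell. These mice make no B cells and no T cells but those of the transgene. The lists named for CD8 T cells (Cd8a and Cd8b1) and for B cells are therefore read below as genes only. In such bulk samples fewer cells of a type and less RNA per cell cannot be told apart, and the part of these other cells in the results below was not tested.

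Gzma encodes a tryptase-like granzyme. In CD4+ cells it read 11.22, 11.30 and 11.31 in unimmunised mice, 7.43, 7.73 and 6.74 in primed mice, 7.33, 7.31 and 7.06 with control IgG, 8.69, 8.73 and 8.87 with abatacept, and 11.66, 11.15 and 10.76 in tolerised mice. In CD11c+ cells the corresponding values were 10.20, 10.14 and 10.51, then 11.42, 11.00 and 11.20, then 11.48, 11.49 and 11.36, then 10.53, 10.78 and 11.15, and 11.75, 11.86 and 11.96. The primed and IgG arrays of CD4+ cells were the lowest of all 30, and the abatacept arrays of CD4+ cells lay apart from every other group. At the top, tolerised CD11c+ cells (11.86 ± 0.10, SD, n = 3) stood above IgG CD11c+ cells (11.44 ± 0.07) without overlap. Unimmunised CD4+ cells (11.27 ± 0.05), primed CD11c+ cells (11.20 ± 0.21), tolerised CD4+ cells (11.19 ± 0.45) and abatacept CD11c+ cells (10.82 ± 0.32) each overlapped their neighbour in that order.

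Gzmb encodes the granzyme that cleaves after aspartate and activates caspases. In CD4+ cells it read 7.52, 7.36 and 7.49 in unimmunised mice, 7.64, 6.44 and 7.55 in primed mice, 6.64, 7.28 and 7.03 with control IgG, 4.88, 4.49 and 5.33 with abatacept, and 9.03, 8.13 and 7.36 in tolerised mice. In CD11c+ cells it read 5.35, 4.99 and 5.40 in unimmunised mice, 7.47, 6.78 and 7.04 in primed mice, 8.16, 7.83 and 7.97 with control IgG, 5.93, 6.69 and 7.23 with abatacept, and 9.23, 8.46 and 9.44 in tolerised mice. Both cell types were highest after oral tolerance (CD11c+ 9.05 ± 0.52 and CD4+ 8.17 ± 0.83, SD, n = 3, with overlapping arrays). The lowest groups were CD4+ cells under abatacept (4.90 ± 0.42, 2 of 3 arrays above the array median) and unimmunised CD11c+ cells (5.25 ± 0.23), which overlapped each other. Of the groups between, unimmunised, primed and IgG CD4+ cells and primed CD11c+ cells overlapped in turn.

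The granzyme promoters are shown because the genes took opposite directions under abatacept in CD4+ cells. Promoters of 4 of the 5 members (Gzma, Gzmb, Nkg7 and Klra9) were found in the RefSeq table of build GRCm38.p6. The 250 bases before the annotated start are printed 5′ to 3′ on the gene's strand, at chr13:113100982-113101231 (minus strand) for Gzma and chr14:56262335-56262584 (minus strand) for Gzmb, with matches to TGTGGT (the Runx core) and TGANTCA (the AP-1 site) on either strand in capitals:
Gzma: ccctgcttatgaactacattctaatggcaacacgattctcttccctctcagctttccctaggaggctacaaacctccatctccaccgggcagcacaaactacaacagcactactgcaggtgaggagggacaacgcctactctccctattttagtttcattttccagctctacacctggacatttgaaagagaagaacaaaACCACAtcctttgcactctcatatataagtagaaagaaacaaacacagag
Gzmb: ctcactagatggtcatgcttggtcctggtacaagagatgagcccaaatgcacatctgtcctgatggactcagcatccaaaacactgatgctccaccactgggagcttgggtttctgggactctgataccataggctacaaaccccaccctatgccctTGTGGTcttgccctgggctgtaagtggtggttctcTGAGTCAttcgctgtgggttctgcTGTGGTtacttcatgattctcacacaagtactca
The Gzma window holds 1 Runx core match, on the opposite strand, whose first printed base lies 50 bases before the start. The Gzmb window holds 2 Runx core matches, beginning 93 and 34 bases before the start, and 1 AP-1 match beginning 58 bases before it. Neither window matched TGACGT (the core of the cAMP response element) or GGTGTG (the T-box core). Among 32851 upstream windows of 250 bases, TGTGGT occurs in 14%, TGANTCA in 6.75%, TGACGT in 6.47% and GGTGTG in 16.3%. These matches describe the letters of the window and not binding.

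Nkg7 encodes a membrane protein of cytotoxic granules. In CD4+ cells it read 8.72, 8.88 and 8.87 in unimmunised mice, 6.23, 6.20 and 6.34 in primed mice, 6.22, 6.12 and 6.03 with control IgG, 6.40, 6.04 and 6.10 with abatacept, and 7.93, 7.83 and 7.27 in tolerised mice. In CD11c+ cells it read 7.78, 7.70 and 8.39 in unimmunised mice, 8.79, 8.61 and 8.56 in primed mice, 9.04, 9.11 and 9.01 with control IgG, 8.29, 8.38 and 8.71 with abatacept, and 9.26, 9.17 and 9.55 in tolerised mice. The 3 primed groups of CD4+ cells formed the low end and overlapped one another, and the CD11c+ cells of tolerised (9.32 ± 0.20) and IgG mice (9.05 ± 0.05) formed the high end.

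Klra9 encodes Ly49I, an inhibitory receptor for MHC class I. Its probe set carries the suffix x, which marks probes that may bind related transcripts, so the value can include other Ly49 genes. In CD4+ cells it read 9.74, 9.76 and 9.92 in unimmunised mice, 4.70, 5.38 and 3.50 in primed mice, 2.91, 3.34 and 2.57 with control IgG, 6.58, 6.58 and 6.11 with abatacept, and 8.80, 7.88 and 6.94 in tolerised mice. In CD11c+ cells it read 9.42, 9.52 and 9.66 in unimmunised mice, 10.45, 10.25 and 10.25 in primed mice, 10.46, 10.25 and 10.44 with control IgG, 9.62, 9.71 and 10.09 with abatacept, and 10.04, 10.61 and 10.62 in tolerised mice. The order in CD4+ cells, from unimmunised through tolerised, abatacept and primed to IgG, had no overlap between neighbours. All 3 IgG arrays and 1 primed array of CD4+ cells lay below the array median, so a fold against them is not exact.

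Tyrobp encodes DAP12, the ITAM adaptor of activating NK receptors and of myeloid receptors. In CD4+ cells it read 11.17, 11.22 and 11.37 in unimmunised mice, 6.66, 7.09 and 6.70 in primed mice, 4.43, 5.84 and 5.99 with control IgG, 8.48, 7.86 and 8.32 with abatacept, and 10.03, 9.44 and 8.33 in tolerised mice. In CD11c+ cells all 15 arrays lay between 11.80 and 11.98, a span of 0.14 between the group means. The CD4+ groups kept the order seen for Klra9, with overlap between tolerised and abatacept arrays only. The lowest IgG array, at 4.43, was below the array median.

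**Figure D1:**
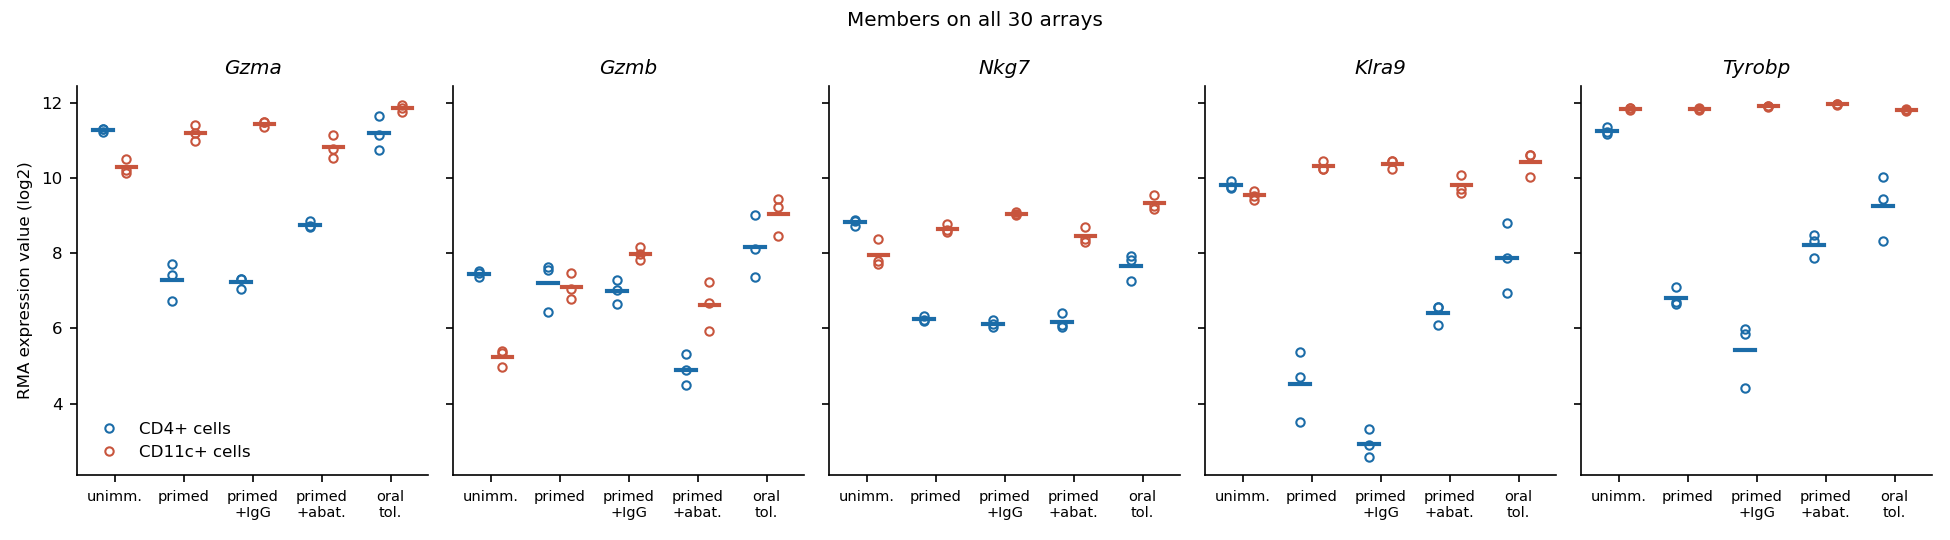
RMA expression values (log2) of the 5 members on all 30 arrays, by condition (circles are arrays, bars are means of 3 arrays; blue CD4+ cells, red CD11c+ cells). Gzma, Klra9 and Tyrobp in CD4+ cells are low in the primed and IgG groups and higher with abatacept, while Gzmb in CD4+ cells is lowest with abatacept; Tyrobp in CD11c+ cells stays between 11.80 and 11.98.

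Primed CD4+ cells from axillary nodes had lower levels of 4 members than unimmunised CD4+ cells, a comparison in which 47.4% of 10322 tested genes were called. The log2 difference was -3.98 ± 0.23 (SE; adjusted p = 1.19e-08) for Gzma, -2.57 ± 0.15 (adjusted p = 1.09e-08) for Nkg7, -5.28 ± 0.45 (adjusted p = 5.59e-07) for Klra9 and -4.44 ± 0.41 (adjusted p = 1.2e-06) for Tyrobp. For these 4 the groups' arrays lay fully apart. The share of all tested genes with arrays apart was not counted. Between IgG and primed CD4+ cells 2 members also lay apart, where 0 were called. Gzmb differed by -0.24 ± 0.39 (adjusted p = 0.634) and overlapped. In the same comparison 7 of 7 tested neutrophil, 7 of 7 monocyte and macrophage, 5 of 5 erythroid, 6 of 7 mast cell and basophil and 4 of 4 dendritic cell markers were lower in primed cells. So were 3 of 4 NK markers, with 1 higher (Prf1, whose direction depends on the probe set). By contrast 7 of 7 T cell markers were higher (median 1.07). The part of these cells in the values of the 4 members was not tested. Of 3 sex-linked genes 2 were higher and 1 lower in primed cells, so sex and condition cannot be told apart either.

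Tolerised CD4+ cells from mesenteric nodes were compared with the same unimmunised arrays, and 49.5% of tested genes were called. In that comparison 3 members were lower: Nkg7 by -1.15 ± 0.15 (SE; adjusted p = 2.34e-05), Klra9 by -1.94 ± 0.45 (adjusted p = 0.00305) and Tyrobp by -1.99 ± 0.41 (adjusted p = 0.00129). Gzma differed by -0.09 ± 0.23 (adjusted p = 0.78) and Gzmb by 0.72 ± 0.39 (adjusted p = 0.14), both with overlapping arrays. Beside these, 7 of 7 neutrophil, 6 of 7 monocyte and macrophage and 2 of 4 NK markers were lower in tolerised cells, with 1 NK marker higher. Of 7 mast cell and basophil markers 2 were lower and 1 higher, and 6 of 7 T cell markers were higher (median 0.95). So were 2 of 3 sex-linked genes, with 1 lower, and sex and condition cannot be told apart here. Without tolerised replicate 3, the lowest tolerised array for all 5 members, Gzmb was called higher (1.12, adjusted p = 0.0239).

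Tolerised CD4+ cells had more transcript than primed CD4+ cells for 4 members, against a background of 14.7% of genes called. Gzma was 14.8-fold higher (log2 difference 3.89 ± 0.23, SE; adjusted p = 6.47e-07) and Nkg7 2.68-fold higher (1.42 ± 0.15; adjusted p = 4.91e-05). Klra9 was higher by 3.34 ± 0.45 (adjusted p = 0.000382) and Tyrobp 5.46-fold higher (2.45 ± 0.41; adjusted p = 0.00161). Gzmb differed by 0.96 ± 0.39 (adjusted p = 0.119), and without tolerised replicate 3 it was called higher (1.37, adjusted p = 0.0235). In the same comparison 2 of the 4 tested NK markers and 6 of the 7 tested mast cell and basophil markers were higher, the latter by a median of 2.57. Of 3 sex-linked genes 1 was lower, and the part of sex was not tested.

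Within primed mice, abatacept was compared with control IgG, both from axillary nodes. In CD4+ cells 3 members were higher with abatacept and 1 was lower, where 16.7% of genes were called. Gzma was 2.89-fold higher (log2 difference 1.53 ± 0.23, SE; adjusted p = 0.000567), Tyrobp was higher by 2.80 ± 0.41 (adjusted p = 0.000479) and Klra9 by 3.48 ± 0.45 (adjusted p = 0.000182). Gzmb was lower (-2.08 ± 0.39; adjusted p = 0.0026), not an exact size since 1 abatacept array lay below the array median, and the 3 abatacept arrays lay below all 3 IgG arrays. Nkg7 showed 0.06 ± 0.15 (adjusted p = 0.83) with overlapping arrays. Leaving out any single array of these groups kept all 4 calls. Beside these, 1 of 4 tested NK markers (Eomes) and 1 of 4 plasmacytoid dendritic cell markers were higher, and of 7 T cell markers 1 was higher and 1 lower. Of the genes Cd8a and Cd8b1, 1 of 2 was higher (median 0.66). So was the 1 tested gene of the B cell list, in mice that make no B cells. By contrast 0 of 7 neutrophil, 0 of 7 monocyte and macrophage and 0 of 7 mast cell and basophil markers were called by limma (0 in each list at an unadjusted p below 0.05), and Ncr1 was not above the median on all arrays of either group.

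**Figure D2:**
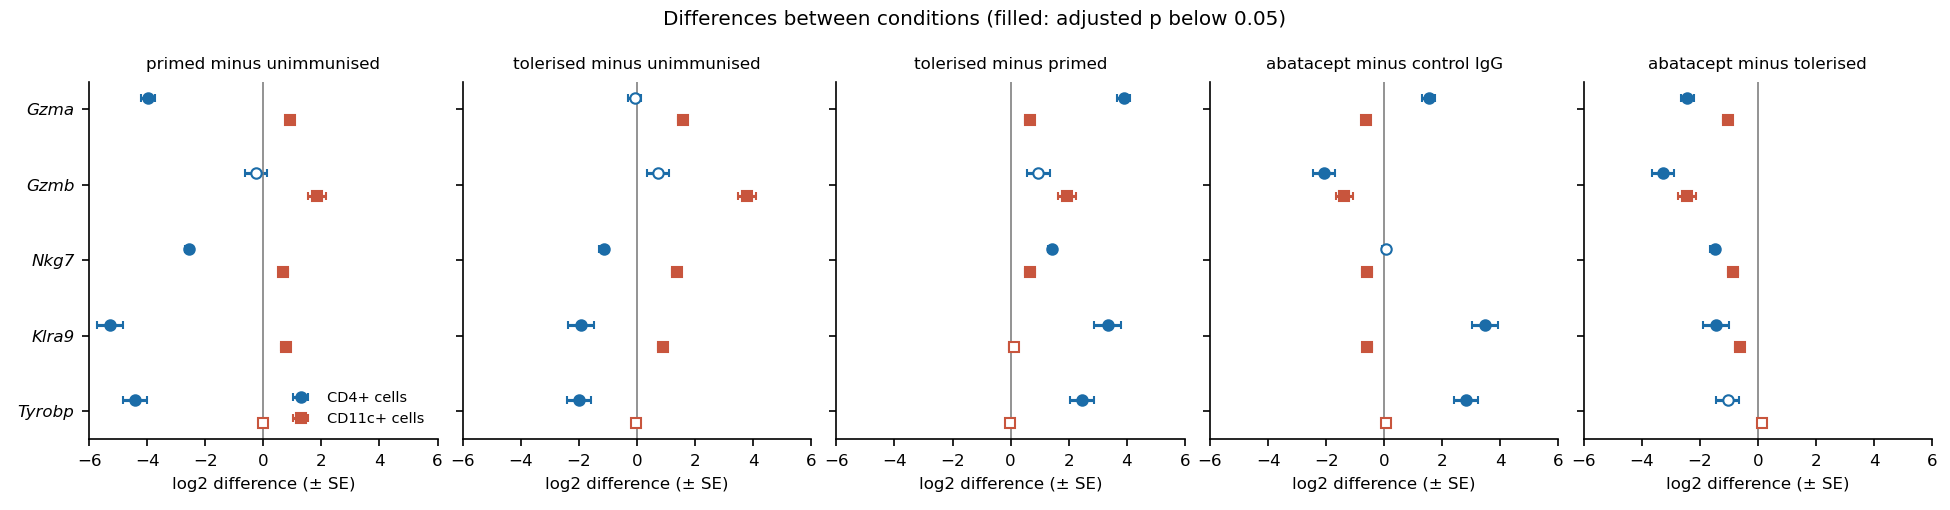
Log2 differences (± SE from the fit, 3 arrays per group) of the 5 members for 5 comparisons, in CD4+ cells (blue circles) and CD11c+ cells (red squares); filled symbols have an adjusted p below 0.05. In the panel of abatacept minus control IgG, Gzma, Klra9 and Tyrobp lie to the right for CD4+ cells, and Gzmb lies to the left in both cell types (-2.08 and -1.37).

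Abatacept-treated CD4+ cells were also compared with tolerised CD4+ cells, and 4 members were lower than after oral tolerance (23.3% of genes called): Gzma by -2.43 ± 0.23 (SE; adjusted p = 1.1e-05), Gzmb by -3.27 ± 0.39 (adjusted p = 5.7e-05), Nkg7 by -1.49 ± 0.15 (adjusted p = 1.36e-05) and Klra9 by -1.45 ± 0.45 (adjusted p = 0.0347). The Klra9 call was lost without any single abatacept array and without tolerised replicate 1 or 2 (adjusted p from 0.0547 to 0.148). Tyrobp differed by -1.05 ± 0.41 (adjusted p = 0.0857), and was called without tolerised replicate 3 (-1.51, adjusted p = 0.0103). Beside these, 6 of 7 mast cell and basophil markers were lower than after oral tolerance, and of 4 NK markers 2 were lower and 1 higher. Of 3 sex-linked genes 2 were lower and 1 higher, so sex and condition cannot be told apart in this comparison. Against unimmunised CD4+ cells all 5 members were lower under abatacept (57.9% of genes called), by -2.51 for Gzma, -2.55 for Gzmb, -2.64 for Nkg7, -3.39 for Klra9 and -3.03 for Tyrobp. There 7 of 7 neutrophil, 7 of 7 monocyte and macrophage, 5 of 5 erythroid and 4 of 4 dendritic cell markers were lower. Of 4 NK markers 2 were lower and 1 higher, and 7 of 7 T cell markers were higher. The part of these cells was not tested. The control IgG and primed groups differed in 0 of 5 members by limma (2 at an unadjusted p below 0.05), with 9 of 10322 genes called (0.0872%). Klra9 differed by -1.59 ± 0.45 (adjusted p = 0.425), with all 3 IgG arrays below the array median, and Tyrobp by -1.40 ± 0.41 (adjusted p = 0.443).

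In CD11c+ cells the direction from unimmunised to primed mice was upward for 4 members, and 38.6% of 10203 tested genes were called. Gzma was 1.89-fold higher (0.92 ± 0.15, SE; adjusted p = 0.000455), Gzmb 3.61-fold higher (1.85 ± 0.30; adjusted p = 0.000453), Nkg7 1.62-fold higher (0.69 ± 0.17; adjusted p = 0.0053) and Klra9 1.71-fold higher (0.78 ± 0.16; adjusted p = 0.00181). Tyrobp differed by -0.01 ± 0.06 (adjusted p = 0.906). These 4 were also higher in tolerised than in unimmunised mice (48.6% of genes called), by 1.57 for Gzma, 3.80 for Gzmb, 1.37 for Nkg7 and 0.89 for Klra9. Both comparisons share the unimmunised arrays. In the same comparisons 2 of 4 tested NK markers were higher in each, and neutrophil markers were higher (6 of 6 in each). Of 7 monocyte and macrophage markers 6 were lower and 1 higher in each. T cell markers were higher in 4 of 6 after priming and 5 of 6 after oral tolerance (medians 0.72 and 1.04). The genes Cd8a and Cd8b1 were higher in 2 of 2 in each (medians 2.22 and 1.48). This does not show CD8 T cells, since the mice make no T cells but those of the transgene. Plasmacytoid dendritic cell markers were higher in 4 of 4 and 3 of 4, and dendritic cell markers in 5 of 5 and 4 of 5. The part of these cells in the members' values was not tested. For primed against unimmunised mice 3 of 3 sex-linked genes were called, so sex and condition cannot be told apart there.

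Tolerised CD11c+ cells exceeded primed CD11c+ cells in 3 members, with 2.84% of genes called. Gzmb was 3.86-fold higher (1.95 ± 0.30, SE; adjusted p = 0.00492). Gzma (0.65 ± 0.15; adjusted p = 0.0352) and Nkg7 (0.67 ± 0.17; adjusted p = 0.0478) were called by a small margin: without the arrays high in Amy1 their adjusted p was 0.116 and 0.176, and the count fell to 1. Each of Gzma and Nkg7 lost its call in 5 of the 6 fits without a single array of these groups, and every such fit called 1 or 2 members. Klra9 differed by 0.11 ± 0.16 (adjusted p = 0.769) and Tyrobp by -0.02 ± 0.06 (adjusted p = 0.871). Of 3 sex-linked genes 2 were lower and 1 higher in tolerised mice, so sex and condition cannot be told apart in this comparison. Of 4 tested NK markers 0 were called by limma (2 at an unadjusted p below 0.05). Lower were 2 of 4 plasmacytoid dendritic cell and 1 of 5 dendritic cell markers and 1 of the 2 genes Cd8a and Cd8b1. Of 2 mast cell and basophil markers 1 was higher. The part of these cells was not tested here.

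Under abatacept, CD11c+ cells had lower levels of 4 members than with control IgG, where 15.3% of genes were called. Gzmb was 2.59-fold lower (-1.37 ± 0.30, SE; adjusted p = 0.0105), Gzma 1.54-fold lower (-0.63 ± 0.15; adjusted p = 0.0154), Klra9 also lower (-0.58 ± 0.16; adjusted p = 0.0252) and Nkg7 1.51-fold lower (-0.59 ± 0.17; adjusted p = 0.0296). Tyrobp differed by 0.06 ± 0.06 (adjusted p = 0.564). Of these calls only that of Gzmb remained without the arrays high in Amy1, which leaves a single IgG array whose spread is assumed to be that of the other groups (Gzmb -1.85, adjusted p = 0.0437; Gzma -0.83, 0.0602; Klra9 -0.80, 0.0868; Nkg7 -0.71, 0.114). The count was 1 without IgG replicate 1, abatacept replicate 1 or abatacept replicate 2, and 2 without IgG replicate 3. Between the same groups 0 of 4 tested NK markers were called by limma (1 at an unadjusted p below 0.05). Of 7 monocyte and macrophage markers 5 were higher and 1 lower with abatacept, and 4 of 5 dendritic cell markers were lower. Lower too were 2 of 2 Cd8 genes (Cd8a and Cd8b1, median -0.97), 3 of 4 plasmacytoid dendritic cell markers (median -0.56) and 1 of 6 T cell markers. Of the 3 sex-linked genes 2 were lower and 1 higher with abatacept, so sex and treatment cannot be told apart in this comparison.

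Abatacept CD11c+ cells were below tolerised CD11c+ cells in 4 members (37.5% of genes called), by -1.04 for Gzma, -2.43 for Gzmb, -0.87 for Nkg7 and -0.62 for Klra9. Against unimmunised mice 1 member, Gzmb, was higher with abatacept (1.37 ± 0.30, SE; adjusted p = 0.0367; 2.34% of genes called), and this call was lost without the arrays high in Amy1 (0.93, adjusted p = 0.338) and without unimmunised replicate 1 or 2 or abatacept replicate 2 or 3. Control IgG and primed CD11c+ cells differed in 0 of 5 members by limma (2 at an unadjusted p below 0.05), with 2 of 10203 genes called (0.0196%). Gzmb read 0.89 ± 0.30 higher with IgG (adjusted p = 0.332).

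The cell types were then compared within each condition, over 10838 tested genes. The mean level of the 3 sex-linked genes joins Xist with the Y-linked genes and does not give the sex by itself. It was 8.915 to 9.356 in CD4+ and 6.95 to 7.12 in CD11c+ cells of primed mice. With control IgG it was 5.75 to 5.98 and 7.46 to 8.28, and after oral tolerance 7.64 to 8.18 and 5.68 to 5.95. All 3 genes were above the array median on all 3 arrays of primed and tolerised CD4+ cells and of IgG CD11c+ cells. Xist did not reach that mark in primed CD11c+ cells. Eif2s3y and Kdm5d did not reach it in IgG CD4+ and tolerised CD11c+ cells. In primed, IgG and tolerised mice sex and cell type cannot be told apart. The mean levels were 5.74 to 5.85 and 5.87 to 6.03 in unimmunised mice, and 5.82 to 5.91 and 5.76 to 5.765 with abatacept. There Eif2s3y and Kdm5d did not reach that mark in either cell type. In unimmunised mice 3 members were higher in CD4+ than in CD11c+ cells (66.4% of genes called): Gzma by 0.99 ± 0.20 (SE; adjusted p = 0.000165), Gzmb by 2.21 ± 0.37 (adjusted p = 1.24e-05) and Nkg7 by 0.87 ± 0.16 (adjusted p = 6.02e-05). After priming 4 were lower in CD4+ cells (63.2% called), with Klra9 at -5.78 ± 0.36 and Tyrobp at -5.02 ± 0.31, while Gzmb differed by 0.11 ± 0.37 (adjusted p = 0.804). All 5 were lower in CD4+ cells with control IgG (65.7% called), with abatacept (68.7% called) and after oral tolerance (60.1% called). With control IgG the Gzmb difference (adjusted p = 0.02) lost its call without CD4+ IgG replicate 1 (0.0846), CD11c+ IgG replicate 1 (0.062) and the arrays high in Amy1 (0.0688). After oral tolerance its difference of -0.87 (adjusted p = 0.0435) lost its call in 4 of the 6 fits without a single array, with no filter (0.0541), with quantile normalization applied again (0.0757), with array weights (0.0557) and without the arrays high in Amy1 (-0.68, 0.177). Without tolerised CD4+ replicate 3 the last count was 3, since Gzma (-0.46, adjusted p = 0.0691) and Gzmb (-0.47, adjusted p = 0.299) lost their calls.

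The difference between cell types was itself tested for 3 effects. In CD11c+ cells 3 of 3 sex-linked genes were called for each of these effects. In CD4+ cells 3 of 3 were called for primed minus unimmunised, 1 of 3 for tolerised minus primed and 0 of 3 for abatacept minus IgG. The part of sex was not tested. The primed minus unimmunised effect was lower in CD4+ than in CD11c+ cells for all 5 members (41.9% of genes called), with a gap of -4.90 ± 0.29 (SE; adjusted p = 5.37e-12) for Gzma and -2.09 ± 0.52 (adjusted p = 0.00226) for Gzmb. The tolerised minus primed effect was larger in CD4+ cells for 4 members (11.2% called), with gaps of 3.24 ± 0.29 for Gzma, 3.23 ± 0.51 for Klra9, 2.47 ± 0.44 for Tyrobp and 0.75 ± 0.23 for Nkg7 (adjusted p = 0.0368). The call of Nkg7 was lost in 8 of the 12 fits without a single array (adjusted p from 0.0576 to 0.111) and with no filter (0.0503). For abatacept minus IgG it was larger in CD4+ cells for 3 (14.3% called): Gzma 2.16 ± 0.29 (adjusted p = 2.03e-05), Klra9 4.06 ± 0.51 (adjusted p = 8.25e-06) and Tyrobp 2.75 ± 0.44 (adjusted p = 0.000157). For Gzmb the abatacept gap was -0.71 ± 0.52 (adjusted p = 0.394), and for Nkg7 it was 0.65 ± 0.23 (adjusted p = 0.0608).

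Of the other granule proteases and perforin (Gzmc, Gzmd, Gzme, Gzmf, Gzmg, Gzmk, Gzmm, Gzmn and Prf1), 4 of 9 were tested in each cell type. In primed against unimmunised CD4+ cells 2 of 4 were higher and 0 lower (median 0.38, with 47.4% of all genes called), unlike Gzma. Prf1, whose direction depends on the probe set, was among the higher. In tolerised against primed CD4+ cells 0 of 4 were called by limma (2 at an unadjusted p below 0.05, with 14.7% of all genes called). Gzmk, a tryptase-like granzyme of activated lymphocytes, was lower with abatacept than with IgG in CD4+ cells (-1.02 ± 0.29, SE; adjusted p = 0.032) and in CD11c+ cells (-1.03 ± 0.23; adjusted p = 0.011). It was also lower than after oral tolerance in CD4+ (-1.65) and CD11c+ cells (-1.56). Gzmc was lower with abatacept in CD11c+ cells (-1.43 ± 0.28; adjusted p = 0.00584), where 0 of 3 abatacept arrays were above the array median, and read 0.61 ± 0.23 higher in CD4+ cells (adjusted p = 0.0868). For abatacept against IgG the list held 1 lower and 0 higher of 4 in CD4+ cells (median 0.04, against -0.07 over all tested genes) and 2 lower of 4 in CD11c+ cells (median -0.63, against -0.02).

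Prf1, which encodes perforin, was read differently by its probe sets. The probe set with the higher mean, 1450335_PM_at, read 7.56 ± 0.07 (SD, n = 3) in unimmunised and 7.86 ± 0.08 in primed CD4+ cells, and was called higher after priming (0.29 ± 0.08, SE; adjusted p = 0.00841). The other, 1451862_PM_a_at, read 6.37 ± 0.06 and 4.86 ± 0.39 in the same groups. With the mean of the probe sets the primed minus unimmunised difference was -0.61 (adjusted p = 0.00732), so the direction of Prf1 in CD4+ cells depends on the probe set. In CD11c+ cells 1451862_PM_a_at read 4.85 ± 0.47 in unimmunised and 6.62 ± 0.28 in tolerised mice, while 1450335_PM_at read 7.47 ± 0.12 and 7.29 ± 0.19.

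**Figure D3:**
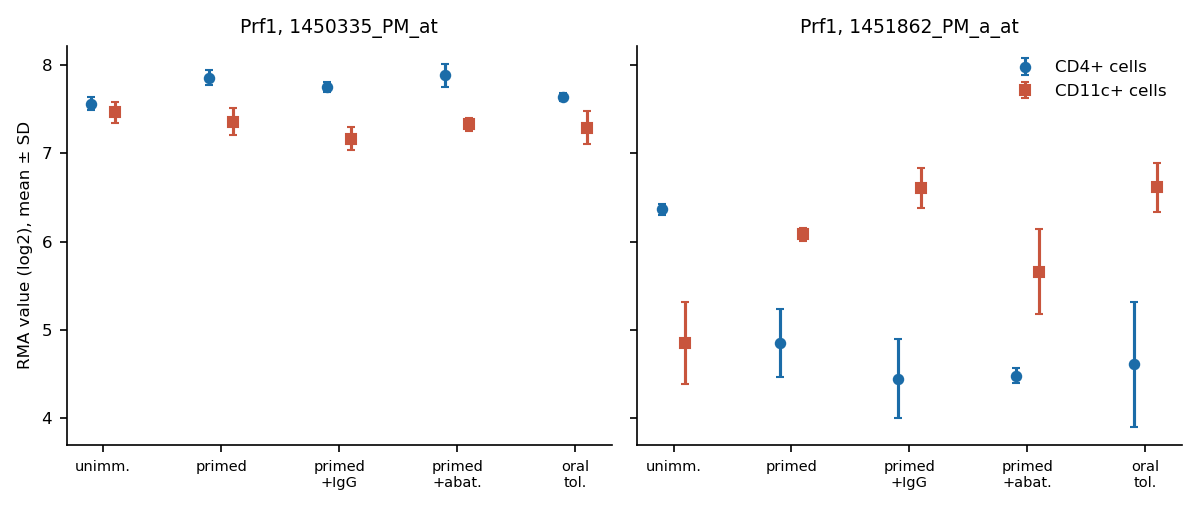
RMA values (log2, mean ± SD of 3 arrays) of the probe sets of Prf1 by condition, in CD4+ cells (blue circles) and CD11c+ cells (red squares). The left panel varies little between groups, and the right panel falls from 6.37 in unimmunised to 4.86 in primed CD4+ cells.

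Other NK receptors made up a list of 19 genes, of which 15 were on the array with a single symbol and 13 were tested in each cell type. In primed against unimmunised CD4+ cells 9 of 13 were lower and 1 higher (median -2.41, against 0.02 over all tested genes), and in tolerised against primed CD4+ cells 8 were higher and 0 lower (median 0.89, against -0.05). Ncr1, the NKp46 receptor that marks NK cells, differed by -2.79 in the first and 1.21 in the second of these comparisons, and Klrk1, which encodes NKG2D, by -2.81 and 1.05. These sizes are not exact, since Ncr1 was above the array median on 1 and Klrk1 on 2 of the 3 primed CD4+ arrays. With abatacept against IgG, 4 of 13 were higher and 1 lower in CD4+ cells (median 0.44, against -0.07). The higher ones included Cd244a (0.96 ± 0.23, SE; adjusted p = 0.0129), Cd160 (0.73 ± 0.18; adjusted p = 0.0152) and Klrk1 (1.10 ± 0.31; adjusted p = 0.0274), and the lower one was Klrg1, a receptor of effector lymphocytes (-1.68 ± 0.30; adjusted p = 0.00196). Ncr1 differed there by 0.44 ± 0.29 (adjusted p = 0.332). On IgG CD4+ arrays Klrk1 was above the array median on 1 of 3 and Ncr1 on 0 of 3. In CD11c+ cells 7 of 13 were higher and 2 lower after priming (median 0.46), where 38.6% of all tested genes were called. After oral tolerance against unimmunised mice 9 were higher and 2 lower (median 0.935, with 48.6% of all genes called). For abatacept against IgG 2 were higher and 3 lower (median -0.37, with 15.3% of all genes called), with Klrg1 at -1.03 ± 0.23 (adjusted p = 0.0116).

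Of 21 other Ly49 genes listed, 7 were on the array with a single symbol, 3 were tested in CD4+ and 4 in CD11c+ cells. Klra17, which encodes Ly49Q of plasmacytoid dendritic cells, was higher in primed than in unimmunised CD11c+ cells (1.92 ± 0.18, SE; adjusted p = 9.25e-06) and lower with abatacept than with IgG (-0.80 ± 0.18; adjusted p = 0.0109). For abatacept against IgG in CD4+ cells 0 of 3 (Klra2, Klra7 and Klra17) were called by limma (0 at an unadjusted p below 0.05), while Klra9 was higher. Klra2 and Klra17 were above the array median on 0 of 3 arrays in both groups. The probe sets of Klra7 differed in direction. The one used, with the higher mean, read 5.10 with IgG and 4.71 with abatacept, with overlapping arrays. The other read 3.82 and 4.39 without overlap, largely below the array median. The count therefore does not set Klra9 apart from other Ly49 genes.

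The adaptors and kinases that act beside Tyrobp (Hcst, Fcer1g, Cd247, Syk and Zap70; 5 of 5 tested) differed among themselves. Fcer1g, the other ITAM adaptor of NK and myeloid cells, was lower in primed than in unimmunised CD4+ cells (-4.69 ± 0.35, SE; adjusted p = 1.41e-07) and higher after oral tolerance than after priming (2.26 ± 0.35; adjusted p = 0.000884). Syk, the kinase recruited by ITAMs in those cells, showed -3.98 ± 0.27 and 1.69 ± 0.27 in the same comparisons. Both genes were above the array median on 0 of 3 primed and 0 of 3 IgG CD4+ arrays, so these differences are not exact sizes. Hcst, which encodes DAP10, was higher in primed than in unimmunised CD4+ cells (0.67 ± 0.08; adjusted p = 1.94e-05), as was Zap70, the T cell kinase (1.67 ± 0.10; adjusted p = 1.61e-08). In that comparison 7 of 7 T cell markers were also higher (median 1.07), and the groups came from different tissues. For abatacept against IgG in CD4+ cells 0 of 5 were called by limma (2 at an unadjusted p below 0.05), and Fcer1g read 0.92 ± 0.35 higher (adjusted p = 0.0899). In CD11c+ cells Fcer1g was higher with abatacept (0.46 ± 0.10; adjusted p = 0.0076). Of the myeloid receptors that pair with Tyrobp, 4 of 8 were tested. All 4 (Pilrb1, Trem3, Clec5a and Trem1) were lower in primed than in unimmunised CD4+ cells, where 47.4% of all tested genes were called. For abatacept against IgG in CD4+ cells, with 16.7% of all genes called, 0 of 4 were called by limma (0 at an unadjusted p below 0.05).

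Among 14 factors and cytokines of the cytotoxic programme, 13 were tested. Eomes, a T-box factor of NK and memory cells, was higher in tolerised than in primed CD4+ cells (2.18 ± 0.24, SE; adjusted p = 6.32e-05) and higher with abatacept than with IgG (1.25 ± 0.24; adjusted p = 0.00302). Tbx21, which encodes T-bet, was higher after oral tolerance (0.96 ± 0.16; adjusted p = 0.00125) but lower with abatacept than with IgG (-0.53). Of the 13 factors, 2 were higher and 5 lower with abatacept in CD4+ cells (median -0.28, against -0.07), the lower ones including Runx3 (-0.51 ± 0.08; adjusted p = 0.000567), Il18rap (-0.93 ± 0.20; adjusted p = 0.007) and Stat4 (-0.39 ± 0.09; adjusted p = 0.0115). In tolerised against primed CD4+ cells 8 were higher and 2 lower (median 0.58, against -0.05). In CD11c+ cells 9 were higher and 1 lower after priming (median 0.78), where 38.6% of all tested genes were called. With abatacept against IgG 2 were lower and 0 higher there (Runx3 -0.56 ± 0.16 and Nfil3 -0.98 ± 0.26), with 15.3% of all genes called.

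**Figure D4:**
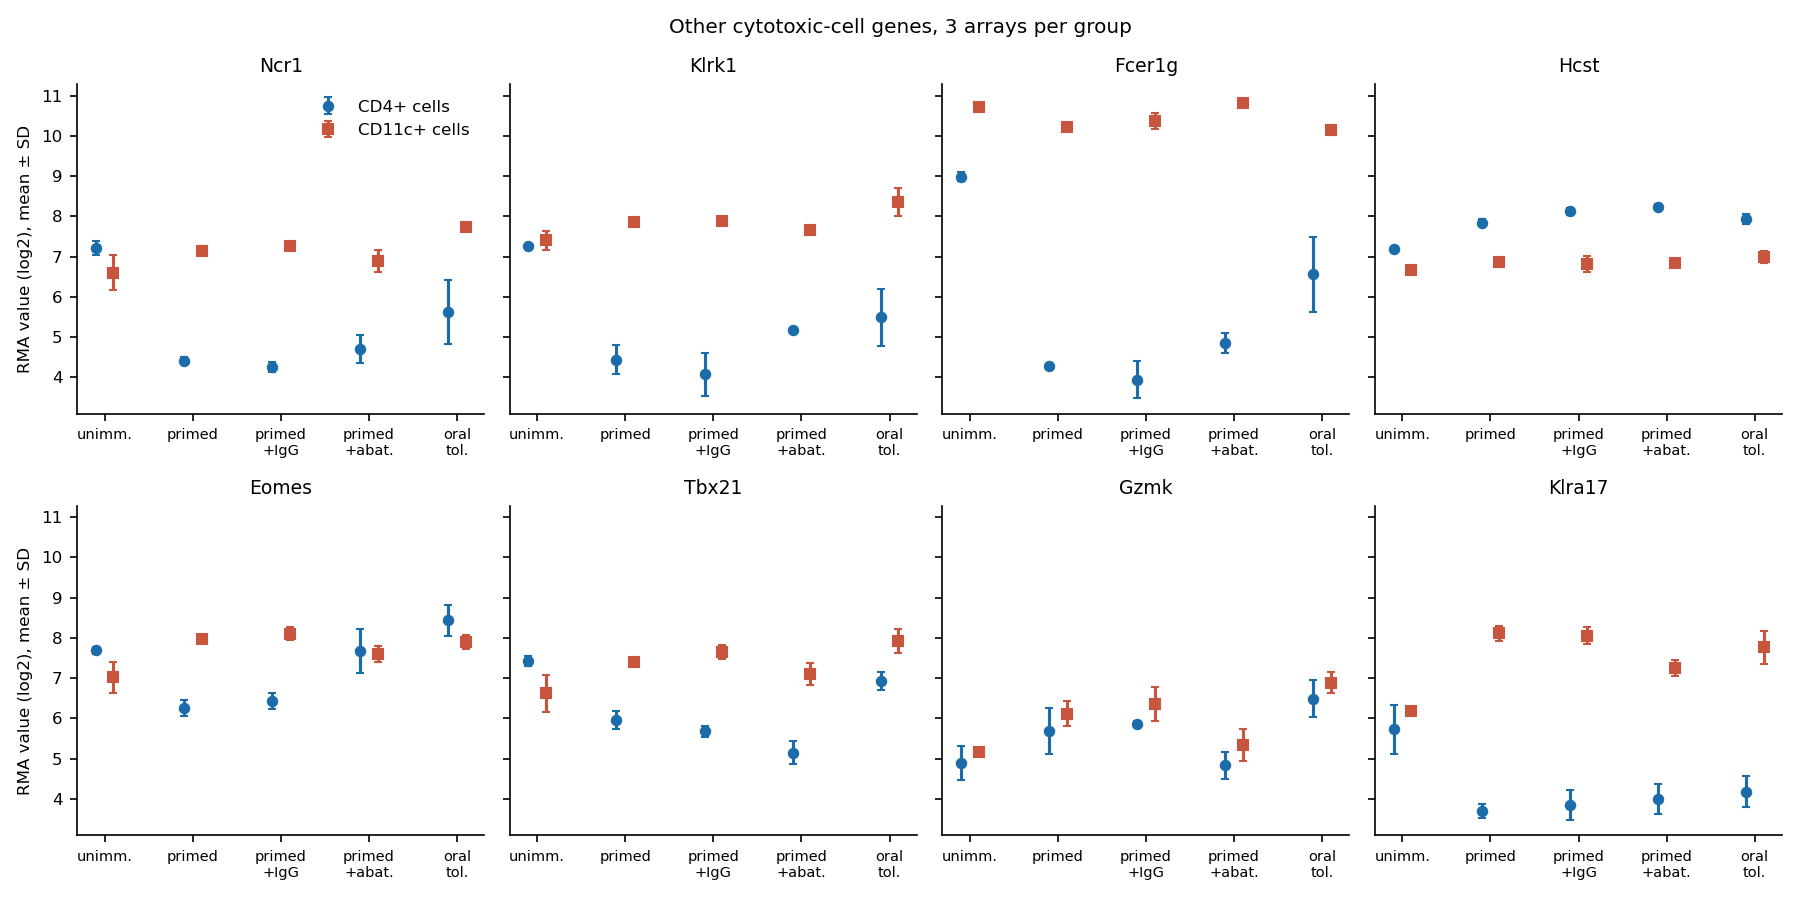
RMA values (log2, mean ± SD of 3 arrays) of 8 other genes of cytotoxic cells by condition, in CD4+ cells (blue circles) and CD11c+ cells (red squares). With abatacept against control IgG in CD4+ cells, Klrk1 and Eomes were higher, and Tbx21 and Gzmk were lower.

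The machinery of granule loading and release (Srgn, Ctsc, Rab27a, Unc13d, Stx11, Stxbp2, Lyst and Lamp1; 8 of 8 tested) showed 2 lower and 0 higher genes for abatacept against IgG in CD4+ cells (16.7% of all tested genes called). These were Stx11, a syntaxin needed for granule release (-0.98 ± 0.14, SE; adjusted p = 0.000273), and Rab27a, a GTPase that docks granules (-0.67 ± 0.12; adjusted p = 0.00202). In CD11c+ cells Srgn, the granule proteoglycan (-0.42 ± 0.10; adjusted p = 0.0124), and Lyst, a lysosomal trafficking regulator (-0.72 ± 0.17; adjusted p = 0.0135), were the 2 lower ones (15.3% of all tested genes called). After oral tolerance against unimmunised mice 5 of 8 were higher and 1 lower in CD11c+ cells (median 0.54, against 0.10).

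**Figure D5:**
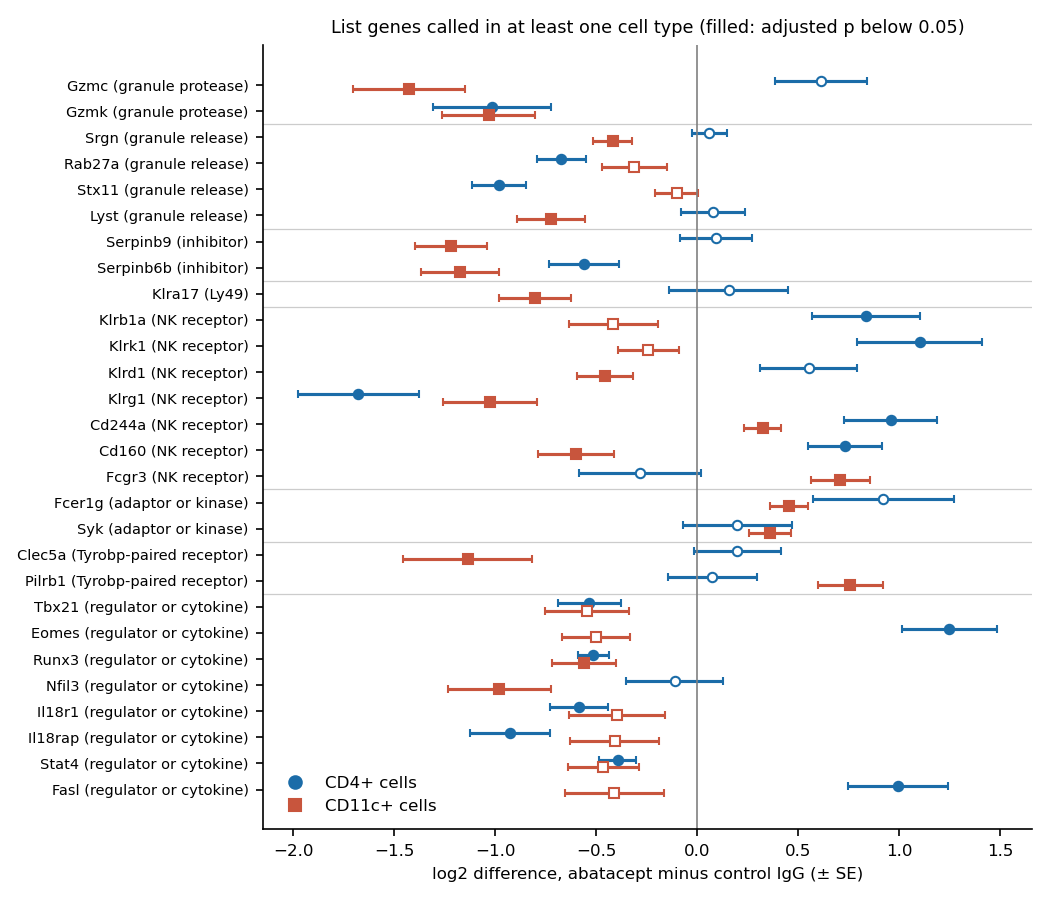
Log2 differences of abatacept minus control IgG (± SE from the fit, 3 arrays per group) for the genes of the 8 lists called in at least 1 cell type, in CD4+ cells (blue circles) and CD11c+ cells (red squares); filled symbols have an adjusted p below 0.05. Gzmk lies to the left in both cell types, and Eomes and Klrk1 lie to the right in CD4+ cells (1.25 and 1.10).

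The members' patterns over the 15 arrays of a cell type were described with Pearson's r, over arrays that share groups and, within a group, tissue. In CD4+ cells r between Gzmb and the other members was 0.21 to 0.53, while the other pairs reached 0.88 to 0.98, the highest being Klra9 with Tyrobp. The genes most like Gzmb in CD4+ cells were Maf (0.96), Slc45a4 (0.94) and Klrg1 (0.93). Those most like Gzma were Itga4 (0.97), Irf8 (0.97) and the mast cell gene Cma1 (0.96), and those most like Nkg7 were Cybb (0.99), Adamdec1 (0.99) and Kit (0.99). Klra9 was followed by Tyrobp (0.98), Ccl5 (0.97) and Xcl1 (0.96), and Tyrobp by Ccl5 (0.98), Klra9 (0.98) and Ctsh (0.96). In CD11c+ cells Gzma, Gzmb, Nkg7 and Klra9 correlated at 0.83 to 0.97, and Tyrobp with them at -0.33 to -0.22. There the nearest genes were S100a10, Klrg1 and Gimap4 for Gzma (0.98 each), Nek2 (0.98), Gzma (0.97) and Psmb4 (0.96) for Gzmb, and Sh2d2a (0.98), Gimap4 (0.97) and Chsy1 (0.97) for Nkg7.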

How the data were processed

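Expression was measured on 30 Affymetrix mouse PM arrays, 3 for each of 10 groups. The deposited values are log2 expression values; per the submitters' processing notes they came from RMA (version not given in the sources). No scanner files were used. Of 45118 probe sets, 28898 carry 1 gene symbol in the platform annotation, 551 several and 15669 none. Each gene is its probe set with the highest mean. limma 3.58.1 (R 4.3.3; lmFit, eBayes) was fitted on the 5 groups of a cell type, or on all 10 groups for comparisons of cell types, which the labels do not tie by mouse. It was tested on simulated data. Array number limits the precision; replicates of a group correlated at 0.983 to 0.995. Replicate numbers did not pair the samples: in 0 comparisons were all 3 pair correlations over 0.1. Members and lists were chosen with earlier results of these data known. Beside the members, each list gives its counts and at most 4 genes with the smallest adjusted p. A further 10 genes were named: Prf1, Gzmk, Gzmm, Ncr1, Klrb1c, Klrk1, Hcst, Fcer1g, Eomes and Tbx21. They are given mainly where called, except that Gzmm and Klrb1c enter only the counts of their lists. The 3 most correlated genes are given for members whose group means span at least 1. Alternatives were the compared groups alone, no filter, a second quantile normalization, array weights, a replicate block, the mean of all probe sets, leaving out arrays, leaving out CD11c+ arrays with Amy1 above 7 and, chosen after seeing the data, a CD4+ fit without unimmunised arrays.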

Additional observations from a re-analysis of the deposited data

Results flagged for a closer look

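Each value below is the effect in CD4+ cells minus the effect in CD11c+ cells, and each passed the limma test of that difference. For primed minus unimmunised it was -4.90 for Gzma, -2.09 for Gzmb, -3.26 for Nkg7, -6.06 for Klra9 and -4.43 for Tyrobp. For tolerised minus primed it was 3.24 for Gzma, 0.75 for Nkg7, 3.23 for Klra9 and 2.47 for Tyrobp. The Nkg7 difference (adjusted p = 0.0368) lost its call in 8 of the 12 fits without a single array and with no filter (0.0503). For abatacept minus control IgG it was 2.16 for Gzma, 4.06 for Klra9 and 2.75 for Tyrobp. The CD4+ groups of the first 2 effects came from different tissues, so tissue and condition cannot be told apart there. In CD11c+ cells 3 of 3 sex-linked genes were called for each of the 3 effects, so sex and condition cannot be told apart there either. In CD4+ cells 3 of 3 were called for primed minus unimmunised and 1 of 3 for tolerised minus primed, so the sex limit holds there too. For abatacept minus control IgG 0 of 3 were called in CD4+ cells by limma. In CD4+ cells the mean level of the NK markers was 6.24 to 6.73 with abatacept and 5.87 to 6.09 with IgG, where 1 of 4 tested markers (Eomes) was called higher (list median 0.28) and Ncr1, not above the median on all arrays, differed by 0.44 (adjusted p = 0.332). Their part in the result was not tested. Groups of 3 arrays were not screened for single outlying arrays.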

How the results depend on the processing

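The number of members called stayed within 1.5 times the main count in all but the following cases. For CD11c+ tolerised against primed it was 1, from 3, with only the compared groups in the fit and without the arrays high in Amy1, and 1 to 2 without single arrays. For CD11c+ abatacept against IgG it was 1, from 4, without the arrays high in Amy1, and 1 to 4 without single arrays. For CD11c+ abatacept against unimmunised it was 0, from 1, with only the compared groups, after a second quantile normalization and without the arrays high in Amy1, and 0 to 2 without single arrays. For CD4+ against CD11c+ cells after oral tolerance it was 3 to 5 without single arrays. With the replicate number as a block the count was the same in 22 of 22 comparisons (for example 4 for abatacept against IgG in CD4+ cells), as the numbers do not pair the samples. The fit of CD4+ cells without unimmunised arrays, chosen after seeing the data, gave 4 calls for tolerised against primed, 4 for abatacept against IgG and 3 for abatacept against tolerised, where Klra9 had an adjusted p of 0.0575. Differences that reversed were near 0 for members. Without single arrays, Gzmb in primed against unimmunised CD4+ cells ranged from -0.46 to 0.14, Gzma in tolerised against unimmunised CD4+ cells from -0.32 to 0.13, Nkg7 in abatacept against IgG CD4+ cells from -0.051 to 0.13, Gzma in IgG against primed CD4+ cells from -0.34 to 0.15, Tyrobp in primed against unimmunised CD11c+ cells from -0.026 to 0.01 (0.002 without the arrays high in Amy1), and Gzmb in primed CD4+ against CD11c+ cells from -0.10 to 0.50. With the mean of all probe sets Prf1 reversed to -0.61 (primed) and -0.78 (abatacept) against unimmunised CD4+ cells. A second quantile normalization moved the median of all genes by up to 0.233. Counts of all called genes moved most where few were called. With only the compared groups, tolerised against primed CD4+ cells gave 898 (from 1514), abatacept against tolerised CD4+ cells 1183 (from 2408), IgG against primed CD4+ cells 5 (from 9), and in CD11c+ cells tolerised against primed 123 (from 290), abatacept against unimmunised 105 (from 239) and IgG against primed 51 (from 2). Array weights gave 532 (from 290), 2696 (from 1560, abatacept against IgG) and 150 (from 2) in CD11c+ cells, 15 (from 9) for IgG against primed CD4+ cells and 2513 (from 1546) for the abatacept difference between cell types. Without the arrays high in Amy1 these were 84 for tolerised against primed, 426 for abatacept against IgG, 21 for abatacept against unimmunised, 0 for IgG against primed and 926 for that difference; a second quantile normalization gave 123 for CD11c+ abatacept against unimmunised. For IgG against primed CD11c+ cells the others gave 0 to 5. Without single arrays the changed counts were 1031 to 1107 (from 1722) for abatacept against IgG and 984 for tolerised against primed in CD4+ cells, 76 to 190, 525 to 778, 54 to 128 and 0 in CD11c+ cells (tolerised against primed, abatacept against IgG, abatacept against unimmunised, IgG against primed), and 1011 for the difference. Where no cause is shown by fewer samples or genes, the cause was not tested.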

Other observations

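Serpins that inhibit granzymes formed a list of 4 genes, all tested in both cell types. Serpinb9, the inhibitor of granzyme B, rose in CD11c+ cells after priming (1.27 ± 0.18, SE; adjusted p = 0.00015) and after oral tolerance (1.59 ± 0.18; adjusted p = 1.48e-05), both against the same unimmunised arrays, and was lower with abatacept than with control IgG (-1.22 ± 0.18; adjusted p = 0.00164). Serpinb6b did the same in CD11c+ cells, with 1.41 ± 0.19, 1.67 ± 0.19 and -1.17 ± 0.19. For abatacept against IgG 2 of 4 were lower in CD11c+ cells (median -0.93, against -0.02 over all tested genes), the comparison in which Gzmb was also lower. In CD4+ cells 1 of 4 was lower with abatacept, Serpinb6b (-0.56 ± 0.17; adjusted p = 0.0417), where 16.7% of all tested genes were called. In tolerised against primed CD4+ cells, with 14.7% of all genes called, 3 of 4 were higher: Serpinb6b (0.99 ± 0.17), Serpinb9 (0.67 ± 0.18) and Serpinb9b (1.18 ± 0.34). Serpinb6a moved the other way from Serpinb6b between unimmunised and primed mice in both cell types (-1.02 ± 0.20 in CD4+ and -0.95 ± 0.22 in CD11c+ cells).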
